A study of Mus musculus with 24 samples.

Results

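The nuclear-encoded subunits of the mitochondrial respiratory chain were followed in colon RNA of 24 mice. Members were all protein-coding nuclear genes whose symbols start with Ndufa, Ndufb, Ndufc, Ndufs or Ndufv (complex I), Sdh followed by a to d (complex II), Uqcr (complex III), Cox4 to Cox8 (complex IV) or Atp5 (complex V, the ATP synthase). The rule found 100 symbols in the gene table, and 96 of them had a probe among the 45616 gene names of the array. No probe was matched to Cox5b, Ndufb1, Ndufb4b or Ndufb4c. By name, 84 of the 96 were subunits (38 of complex I, 4 of complex II, 8 of complex III, 17 of complex IV and 17 of complex V), and the prefixes also took in 12 assembly factors, Ndufaf1 to Ndufaf8 and Sdhaf1 to Sdhaf4, which were kept apart. Ndufa4, now regarded as a subunit of complex IV, was counted with complex I by its name.

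The C57BL/6J mice fell into 6 groups of 4: males (M), females (F) and ovariectomized females (F(OVX)), each fed for 14 weeks on a diet with 10 kcal% fat (low-fat, LFD) or 45 kcal% fat (high-fat, HFD). Males and intact females had sham surgery, and the mice were bought at 7 weeks of age. All 6 groups, the LFD groups included, received azoxymethane (AOM, a colon carcinogen) once at 10 mg/kg and then 1.5% dextran sulfate sodium (DSS), an agent that injures the colon epithelium, in 3 cycles, so no group was free of the tumor protocol. Each array held the RNA of 1 mouse, taken from pieces of distal colon with all their cell types, in which fewer cells of a type and less RNA per cell cannot be told apart. The 3 sex and surgery classes lay on 3 slides, 1 class each, and on every slide the LFD mice took row 1 and the HFD mice row 2. Class therefore cannot be told apart from slide, nor diet from row.

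M + LFD replicates 1 and 2 stood apart: Hoxb13, a gene of the distal colon, read 2.18 and 5.04 there and between 12.58 and 14.79 on the other 22 arrays, and the anterior Hox genes were high. The share of detected probes ran from 40.5% to 61.9% and was highest on those same 2 arrays. All 7 epithelial, all 7 colonocyte and all 7 smooth muscle marker genes were well above background on all 24 arrays, whereas Ucp1, the defining gene of brown fat, was so on no array.

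The respiratory chain passes electrons from NADH (complex I) and succinate (complex II) through complex III and cytochrome c to oxygen at complex IV, and the ATP synthase uses the proton gradient that complexes I, III and IV build. Complexes I, III, IV and V combine subunits of the mitochondrial genome with nuclear ones, whereas complex II is nuclear throughout. Absorptive colonocytes rely on this chain to burn butyrate from bacterial fermentation, and the transcription factors NRF1, GABP (an ETS factor) and YY1 are known to act at the promoters of many subunit genes. The subunits encoded in the mitochondrial genome were not analysed here.

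Promoters from RefSeq (GRCm38.p6), reaching from 250 bases before to 50 bases after a start, were matched for 79 of the 96 members. The NRF1 letters, GCGCA, then any base, then GCGC, read on both strands as all motifs here, were found for 21 members (26.6%) and for 5.2% of all 27025 genes with such a promoter. The ETS letters CCGGAAG were found for 22 members (27.8%) and 9.9% of all genes, and the YY1 letters AAGATGGCG for 8 members (10.1%) and 1.6% of all genes. The letters TCAAGGTCA, which estrogen-related receptors are known to bind, were found for 2 members (2.5%), Atp5g3 and Sdhd, and for 0.5% of all genes. TATAAA was found for 9 members (11.4%) and 15.7% of all genes. At least 1 of the NRF1, ETS and YY1 letters stood in the promoters of 43 members, 54.4% against 15.1% of all genes, and no 2 of these matches overlapped. A match describes the letters of the window and not a bound site.

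The 100 bases before the start are shown for the member of each complex whose level followed the other subunits most closely among those with an NRF1 or ETS match there, and for the 2 members with a match that followed the others least. Capitals mark the NRF1 letters (GCGCA, any base, GCGC, or on the opposite strand GCGC, any base, TGCGC) and the ETS letters (CCGGAAG, or CTTCCGG on the opposite strand).
Ndufs6 (complex I, chr13:73328483-73328582, minus strand): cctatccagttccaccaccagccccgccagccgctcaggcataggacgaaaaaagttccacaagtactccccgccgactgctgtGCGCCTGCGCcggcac
Sdhd (complex II, chr9:50603850-50603949, minus strand): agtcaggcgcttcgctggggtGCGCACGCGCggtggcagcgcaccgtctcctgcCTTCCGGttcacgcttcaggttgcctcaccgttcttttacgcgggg
Uqcr11 (complex III, chr10:80406822-80406921, minus strand): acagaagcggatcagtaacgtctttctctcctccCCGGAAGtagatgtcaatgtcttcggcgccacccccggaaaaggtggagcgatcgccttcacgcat
Cox6b1 (complex IV, chr7:30626115-30626214, minus strand): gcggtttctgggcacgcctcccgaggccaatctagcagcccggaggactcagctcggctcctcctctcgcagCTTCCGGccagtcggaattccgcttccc
Atp5j (complex V, chr16:84834977-84835076, minus strand): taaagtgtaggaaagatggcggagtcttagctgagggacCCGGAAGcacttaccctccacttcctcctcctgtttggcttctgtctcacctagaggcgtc
Atp5g2 (complex V, chr15:102671048-102671147, minus strand): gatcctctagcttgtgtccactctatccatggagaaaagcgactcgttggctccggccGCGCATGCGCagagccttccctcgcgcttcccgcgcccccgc
Sdha (complex II, chr13:74350241-74350340, minus strand): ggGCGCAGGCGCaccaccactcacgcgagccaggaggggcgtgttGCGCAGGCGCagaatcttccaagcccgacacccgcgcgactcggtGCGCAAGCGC
The Sdha stretch holds 3 matches to the NRF1 letters, although Sdha was among the members whose level followed the others least. Among 56 subunits with a promoter and a correlation over 0.5 with the mean of all others, 12 (21.4%) held the NRF1 letters and 16 (28.6%) the ETS letters. Among the 10 with a lower correlation, 5 held the NRF1 letters and 1 the ETS letters.

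Most of the chain was expressed in every mouse. Of the 84 subunits, 79 were well above background on all 24 arrays: 37 of 38 in complex I, all 4, 8 and 17 in complexes II, III and V, and 13 of 17 in complex IV. Of the 12 assembly factors 11 were, with Sdhaf3 so on 22 arrays. Cox7b2 and Cox8c were well above background on no array, Cox6a2 on 12, Cox8b on 20 and Ndufa4l2 on 21. Cox6a2 and Cox8b are the heart and skeletal muscle forms of their subunits, and Cox7b2 and Cox8c are known from testis.

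The forms of complex IV that replace each other between tissues differed in how steady they were. All values that follow are quantile-normalized log2 signals, and they compare arrays for 1 probe and not probes with each other. Cox4i1, the common form of subunit 4, had group means between 15.92 ± 0.08 in F + HFD and 16.14 ± 0.26 (SD, n = 4) in M + LFD, and Cox6a1 had group means between 16.89 ± 0.16 in M + HFD and 17.02 ± 0.07 in F(OVX) + HFD. Cox4i2, the form known from lung and from low oxygen, ranged from 5.64 to 6.78 over the 24 arrays. Cox6b2, the testis form of subunit 6b, ranged from 7.34 to 8.21, and Cox8b from 4.17 to 8.39. Cox8b thus scattered most of these, and it was well above background on 20 of the 24 arrays.

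Cox7a1, the muscle form of subunit 7a, read 12.86, 12.91, 11.83 and 12.75 in M + LFD and 12.98, 13.23, 12.87 and 12.96 in M + HFD. It read 12.53, 12.38, 12.58 and 12.34 in F + LFD and 12.96, 13.32, 12.98 and 12.38 in F + HFD. In F(OVX) + LFD it read 13.05, 13.06, 13.32 and 12.58, and in F(OVX) + HFD 12.89, 13.16, 13.07 and 12.86. F + LFD held the lowest group mean (12.46 ± 0.12), and HFD and LFD overlapped in all 3 classes.

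Ndufa4l2, the low-oxygen relative of Ndufa4, read 5.19, 4.78, 8.70 and 5.76 in F + LFD. Its other 20 arrays lay between 5.02 and 6.46, so F + LFD replicate 3 alone was far above the rest. The same array had the highest mean of the myeloid markers and the lowest mean of the colonocyte markers of the series. Its means of the 7 smooth muscle markers (1.35) and of 2 squamous markers (3.31) were also the highest. Their part in its Ndufa4l2 value was not tested.

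**Figure D1:**
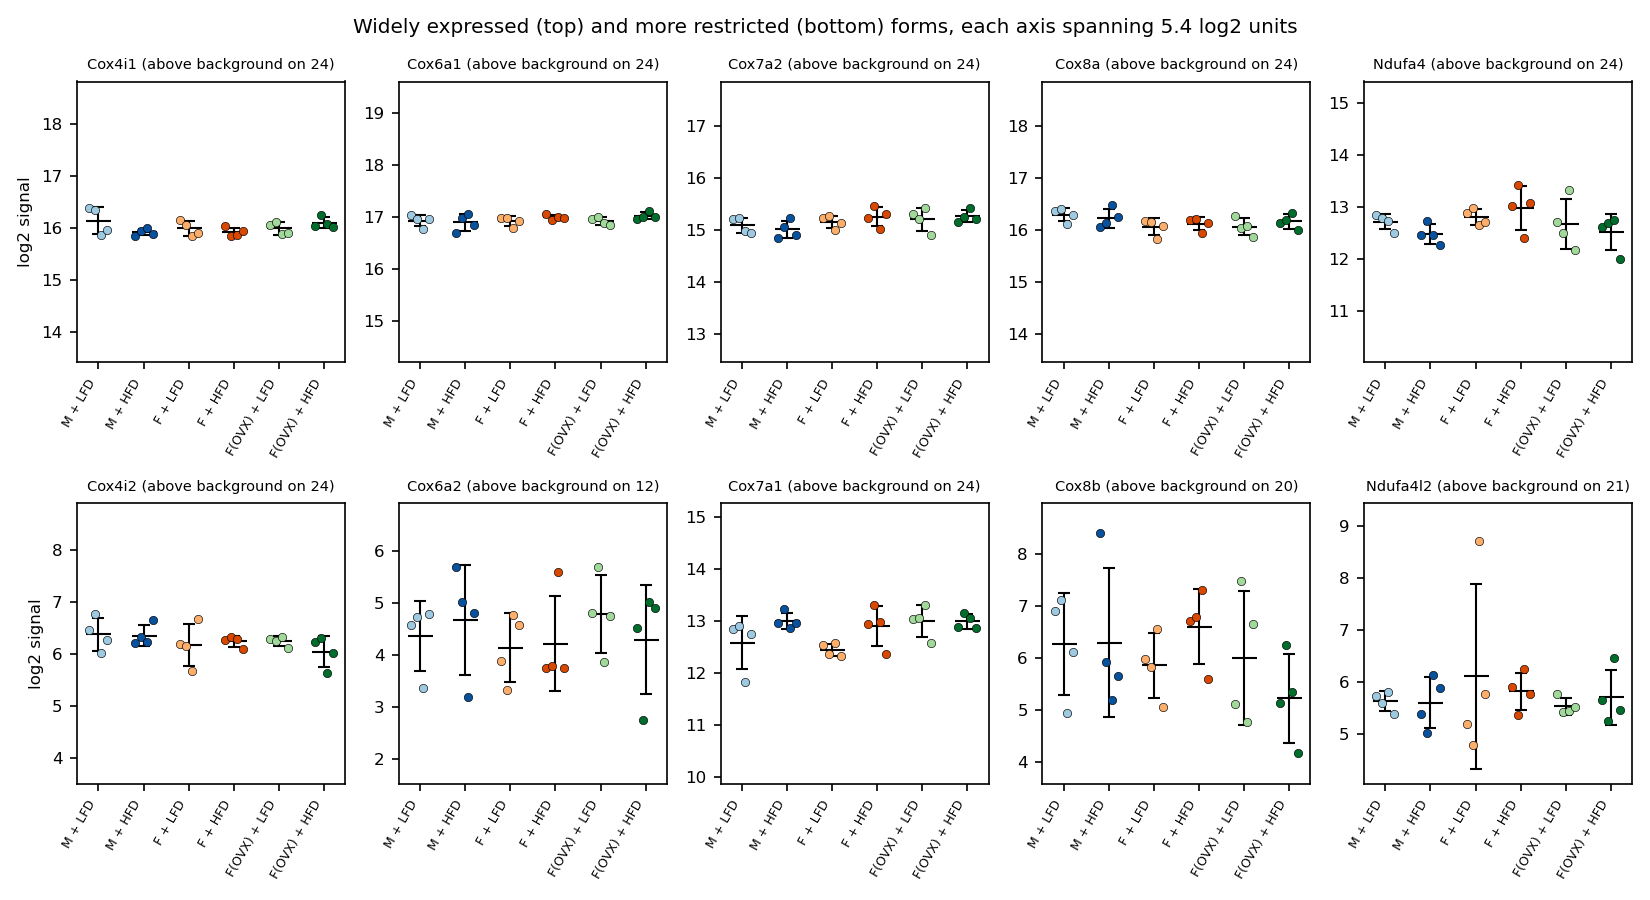
Log2 signal of 5 pairs of related subunits on each of the 24 arrays (points), with the mean ± SD of each group of 4 (bars). The upper row shows the widely expressed form and the lower row the more restricted one, and each title gives the number of arrays well above background. Cox6a1 stays within 1 narrow band while Cox8b and Cox6a2 scatter within every group, and F + LFD replicate 3 is the single high value of Ndufa4l2 at 8.70.

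The comparison of HFD with LFD asked whether the diet moved the chain in males, females or ovariectomized females. No member was a differentially expressed gene (DEG, a fold change of at least 1.5 with an unadjusted p under 0.05) in males (0 of 93 tested), females (0 of 93) or F(OVX) mice (0 of 91). Over all genes tested, 4.30%, 1.20% and 2.19% were such DEGs. With no fold threshold, 1 member in each class had an unadjusted limma p under 0.05, Uqcrq in M, Ndufab1 in F and Sdhaf4 in F(OVX), against 6.09%, 2.91% and 3.69% of all genes. These counts moved with single arrays: leaving out 1 array gave 0 to 2 members at this p in M, 0 to 4 in F and, in 7 of 8 cases, 0 in F(OVX). The 2 in M were 2.15% of members, against 8.97% of all genes in that fit. The 4 in F were 4.30%, against 6.34% of all genes. With the replicate number as a block the counts were 0 in M, 6 in F (7.37% of all genes) and 0 in F(OVX), and 1 member was a DEG in F (2.65% of all genes), Cox8b at 0.74, which overlapped between the diets. Ndufab1 became a DEG in F when LFD replicate 2 or HFD replicate 3 was left out, Cox8b when LFD replicate 3 was, and both Cox7a1 and Cox8b when HFD replicate 4 was. In these fits, in the same order, 2.94%, 2.94%, 2.11% and 2.21% of all genes were DEGs. The lowest adjusted p of any member over all arrays was 0.80 in M, 0.99 in F and 0.9996 in F(OVX).

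The arrays put bounds on most of these differences. The 95% interval of the difference lay within 1.5-fold in either direction for 72 of 93 members in M, 75 of 93 in F and 69 of 91 in F(OVX). The median standard error of a member was 0.15, 0.13 and 0.15 on the log2 scale. For the other members the interval reached past 1.5-fold on at least 1 side.

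The members leaned in opposite directions in males and females, on average by about the SD between mice of 1 group. In males the median difference of HFD and LFD was -0.12 on the log2 scale, with 82 of 93 members lower on HFD, while the median over all genes tested was 0.01. In females it was 0.11, with 81 of 93 higher, against -0.00 over all genes. In F(OVX) mice it was 0.07, with 67 of 91 higher, against 0.01. The mean of the 79 subunits, taken on each array as the mean deviation of each gene from its own average, moved by -0.12, 0.12 and 0.06, and the SD between mice of 1 group was 0.12 in each class. Taken between same-numbered arrays, which held different mice, HFD minus LFD had an SD of 0.18 in M, 0.03 in F and 0.13 in F(OVX). Members vary together, as shown further on, so a count of members on 1 side does not count independent genes. With each array scaled to its 75th percentile in place of quantile normalization, the median was -0.02 in M (54 of 93 lower), 0.34 in F (91 of 93 higher) and -0.03 in F(OVX), where the direction turned (56 of 91 lower). That percentile was lowest on F(OVX) + LFD replicate 3 (123) and F + HFD replicate 2 (155), against 310 to 664 on the other arrays. The part of these dim arrays in the scaled medians was not tested.

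By complex, the medians in males were -0.10 for complex I, -0.14 for complex II, -0.19 for complex III, -0.07 for complex IV, -0.13 for complex V and -0.01 for the assembly factors. All 17 complex V and all 8 complex III subunits were lower on HFD there, without passing the test save Uqcrq. In females complex I had the highest median of the 5 complexes at 0.14 (36 of 38 higher), and complex II was at 0.01 with 2 of 4 higher. In F(OVX) mice complex II stood at 0.19 and complex I at 0.05.

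**Figure D2:**
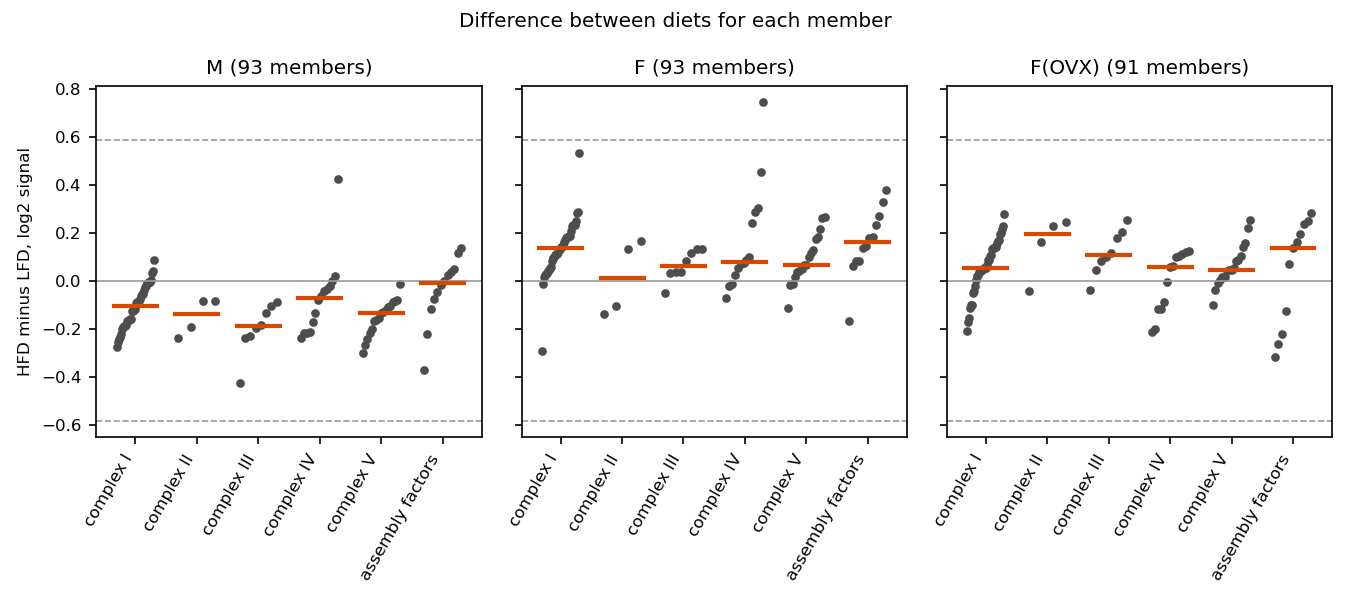
HFD minus LFD in log2 signal for the brightest probe of each tested member (points, sorted within each complex) in M, F and F(OVX), with the median of each complex (orange) and the 1.5-fold lines (dashed). Under quantile normalization 82 of 93 points lie below 0 in M and 81 of 93 above 0 in F (54 lower in M and 91 higher in F with scaling to the 75th percentile), and only Cox8b in F, which did not pass the test, lies past a dashed line.

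The lean in males rested in part on the arrays that stood apart. The subunit mean was highest of all 24 arrays on M + LFD replicate 1 (0.21), and it was 0.12 on replicate 2, -0.02 on replicate 3 and -0.06 on replicate 4. On M + HFD it read -0.14, 0.02, 0.06 and -0.19. Without M + LFD replicates 1 and 2 the median of the members in males was -0.03, with 52 of 93 lower, and 1 member, Cox7a1, became a DEG (0.72, limma adjusted p = 0.94). In that fit 4.13% of all genes were DEGs. With the anterior Hox level as a covariate the median was -0.04 and Cox7a1 was again the 1 DEG (0.75). The difference of Cox7a1 in M was 0.42 ± 0.25 with all 8 arrays and 0.17 without M + LFD replicate 3, whose value of 11.83 stood below the rest.

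In the females the subunit mean read -0.03, 0.06, -0.21 and -0.11 on LFD and 0.08, 0.16, -0.12 and 0.05 on HFD. In F(OVX) + LFD it read 0.09, -0.08, 0.13 and -0.19, and in F(OVX) + HFD -0.02, 0.07, 0.15 and -0.02. The 2 diets overlapped in all 3 classes. Same-numbered arrays lay in 1 slide column in all 3 classes and held different mice. In F, where they deviated together, HFD minus LFD within a column was 0.10, 0.09, 0.10 and 0.17, positive in all 4 with an SD of 0.03. Only F met the rule for such pairing, which was read from these same arrays. The same differences were -0.35, -0.10, 0.08 and -0.13 in M and -0.11, 0.15, 0.02 and 0.17 in F(OVX), with SDs of 0.18 and 0.13.

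**Figure D3:**
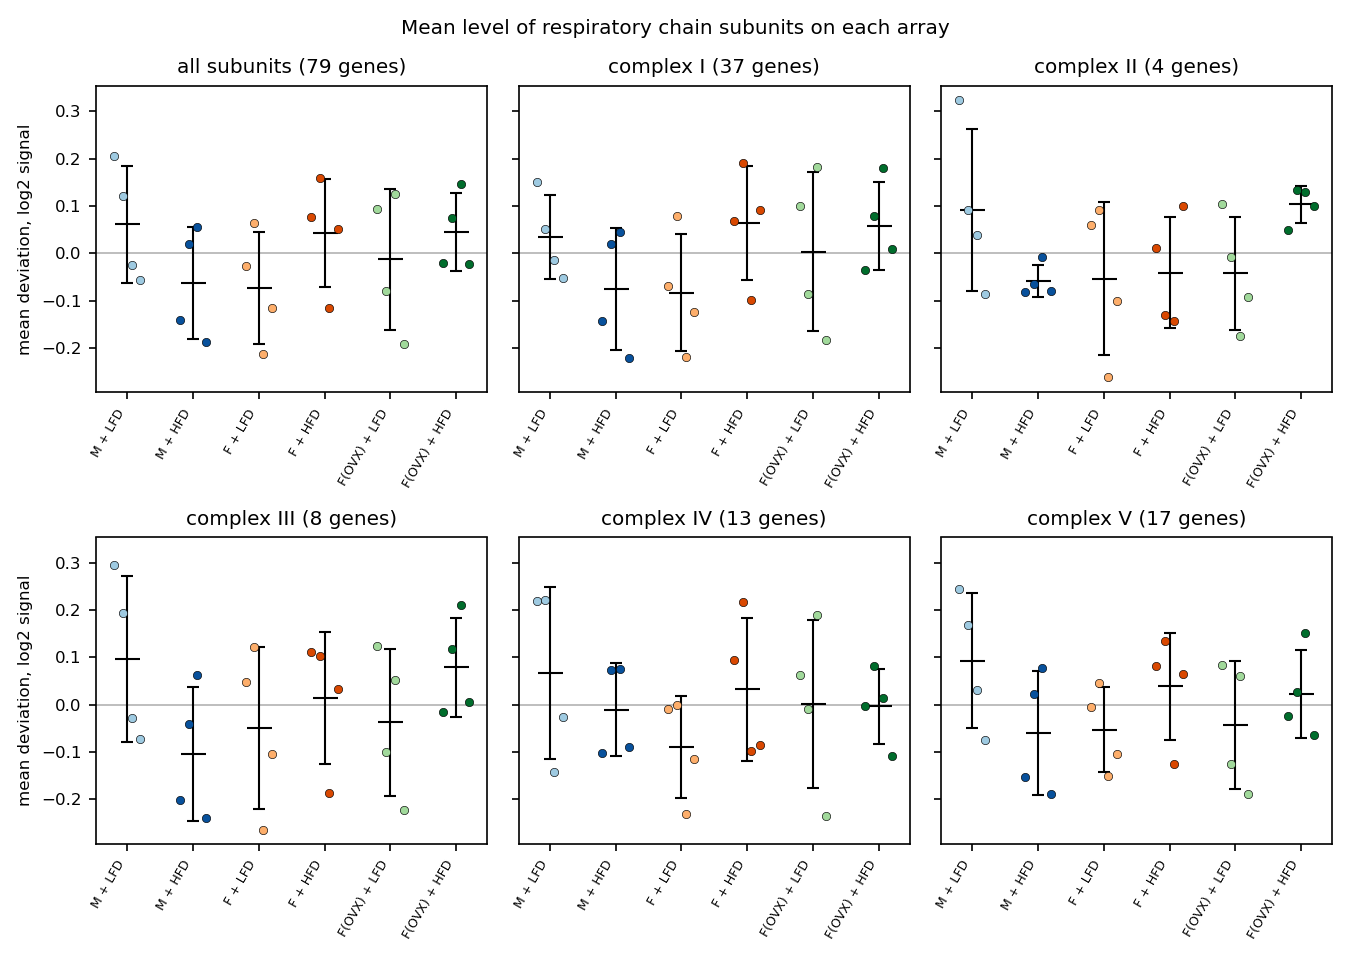
Mean deviation of the subunits from their 24-array averages, in log2 signal, for all 79 subunits and for each complex on each array (points), with the mean ± SD of each group of 4. LFD and HFD overlap in every class for all subunits, from -0.06 to 0.21 against -0.19 to 0.06 in M and from -0.21 to 0.06 against -0.12 to 0.16 in F.

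Among the catalytic and core subunits, Ndufs1, the largest iron-sulfur subunit of complex I, differed by -0.17 ± 0.12 (SE) in M, 0.03 ± 0.11 in F and 0.23 ± 0.17 in F(OVX). Ndufv1, the subunit that binds NADH, differed by -0.25 ± 0.16, 0.08 ± 0.12 and 0.09 ± 0.13. Sdha, the flavoprotein of complex II that also serves the citric acid cycle, differed by -0.08 ± 0.21, -0.11 ± 0.12 and -0.04 ± 0.20, and Sdhb, its iron-sulfur partner, by -0.24 ± 0.16, 0.16 ± 0.15 and 0.16 ± 0.15. None of these passed the test in any class.

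The core subunits of complexes III to V gave the same result. Uqcrc1 of the complex III core differed by -0.09 ± 0.13, 0.13 ± 0.12 and 0.18 ± 0.15 in M, F and F(OVX), and Uqcrfs1, the Rieske iron-sulfur protein, by -0.18 ± 0.21, -0.05 ± 0.18 and -0.04 ± 0.15. Cox5a of complex IV differed by -0.24 ± 0.16, -0.02 ± 0.12 and 0.12 ± 0.14. Atp5a1 and Atp5b are the alpha and beta subunits of the catalytic head of the ATP synthase. Atp5a1 differed by -0.17 ± 0.13, -0.02 ± 0.12 and 0.25 ± 0.16, and Atp5b by -0.13 ± 0.16, -0.02 ± 0.13 and -0.04 ± 0.14. Atpif1, the inhibitor of the ATP synthase and not a member, differed by -0.45 ± 0.20 in M (limma, adjusted p = 0.81), 0.05 ± 0.14 in F and 0.18 ± 0.17 in F(OVX).

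The 3 members that passed an unadjusted p were each different. Uqcrq, a small subunit of complex III, read 15.52, 15.48, 15.25 and 15.28 in M + LFD and 14.67, 15.06, 15.30 and 14.78 in M + HFD. One HFD array lay inside the LFD range, and the difference was -0.43 ± 0.17 (SE, limma, adjusted p = 0.80). Ndufab1, the mitochondrial acyl carrier protein that is also part of complex I, read 9.28, 10.06, 9.11 and 9.66 in F + LFD and 10.08, 10.31, 9.76 and 10.08 in F + HFD. The highest LFD array lay above the lowest HFD array, and the difference was 0.53 ± 0.23 (limma, adjusted p = 0.99).

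Sdhaf4, an assembly factor of complex II, read 10.49, 10.62, 10.80 and 10.55 in F(OVX) + LFD and 10.38, 10.19, 10.29 and 10.33 in F(OVX) + HFD. The groups did not overlap, and the difference was -0.32 ± 0.13 (limma, adjusted p = 0.9996). It was the 1 member of 91 without overlap in F(OVX), where 2.30% of all genes tested had none. In M and F, 0 of 93 members were without overlap, against 2.60% and 1.90% of all genes. The exact permutation test gave Sdhaf4 p = 0.0286, two-sided, the smallest that 70 assignments of 4 against 4 arrays can give.

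The difference between the diet effects was tested for each member in 1 fit of all 24 arrays. For M minus F, 1 of 93 members passed the fold and p thresholds (2.95% of all genes), and 5 passed an unadjusted p under 0.05 (3.52%): Ndufaf6, Ndufa2, Ndufv2, Ndufs7 and Ndufs6. All 5 were lower in M than in F by this measure (1.46% of all genes were), from -0.39 for Ndufv2 to -0.70 for Ndufaf6, and leaving out 1 array gave between 1 and 13 members at this p. The median difference over the members was -0.22, against 0.01 over all genes. For M minus F(OVX), the same 1 member passed both thresholds (6.16% of all genes) and 9 passed the unadjusted p (7.42%), among them Uqcrc2, a core protein of complex III, at -0.49 ± 0.16 (limma, adjusted p = 0.56). The median was -0.17, against 0.01. All 9 were lower in M (3.70% of all genes were), and leaving out 1 array gave between 1 and 16. In the fit with 16 members (17.2%), 9.70% of all genes passed, and in that with 1 member, 5.68% did. The share of members past both thresholds, 1.08% in each comparison, was below that of all genes, while the share at the unadjusted p, 5.38% and 9.68%, was above it. No member had an adjusted p under 0.05, and both comparisons used the same male arrays.

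Ndufaf6, an assembly factor of complex I named here after its values were seen, read 8.67, 8.51, 8.33 and 7.84 in M + LFD and 7.96, 8.35, 7.74 and 7.82 in M + HFD. In F + LFD it read 7.93, 8.45, 7.85 and 7.90 and in F + HFD 8.38, 8.62, 8.01 and 8.45. In F(OVX) + LFD it read 8.28, 7.88, 8.30 and 7.98 and in F(OVX) + HFD 8.18, 8.60, 8.38 and 8.26. Its diet effect in M differed by -0.70 ± 0.27 from that in F (limma, adjusted p = 0.98) and by -0.62 ± 0.27 from that in F(OVX) (limma, adjusted p = 0.63). Without M + LFD replicate 1, 0 members passed both thresholds in either comparison, and for M minus F(OVX) the same held without M + LFD replicate 2, M + HFD replicate 4, F(OVX) + LFD replicate 2 or 4 or F(OVX) + HFD replicate 2. For M minus F, 4 members (4.30%, against 4.94% of all genes) passed when F + LFD replicate 2 was left out. When F + HFD replicate 3, M + HFD replicate 3 or M + LFD replicate 4 was, 3 members (3.23%) passed, against 5.48%, 4.02% and 5.02% of all genes.

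For F(OVX) minus F no member passed both thresholds (1.52% of all genes), and 2 (2.15%) passed the unadjusted p, against 2.12% of all genes. Sdhaf4 differed by -0.40 ± 0.14 and Sdhd, a membrane anchor of complex II, by 0.37 ± 0.17, each with an adjusted p of 0.9998 (limma). For the diet effect averaged over the 3 classes no member was a DEG (0.773% of all genes), and 1 passed the unadjusted p (4.21%), Cox7a1 at 0.29 ± 0.12 (limma, adjusted p = 0.98). The largest average effects in the other complexes were 0.27 for Ndufab1, -0.08 for Sdha, -0.09 for Uqcrfs1 and 0.14 for Atp5d, the delta subunit of the ATP synthase.

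Males and females, on different slides, differed in no larger share of the members than of all genes. Of 93 members, none was a DEG in M minus F averaged over the diets (5.57% of all genes), 9 passed an unadjusted p under 0.05 (18.0%) and 2 an adjusted p under 0.05 (2.60%). Ndufa6, a LYR-motif subunit of complex I that binds Ndufab1, read between 14.86 and 15.40 on the 8 male arrays, between 14.65 and 14.91 on the 8 female arrays, and between 14.81 and 15.11 on the 8 F(OVX) arrays. The difference was 0.37 ± 0.08 (limma, adjusted p = 0.016), and the male and female ranges overlapped. Ndufaf8, an assembly factor of complex I, read between 8.24 and 9.11 in M and between 7.79 and 8.50 in F, a difference of 0.56 ± 0.14 (adjusted p = 0.038). The Ndufa6 call was lost under 2 of 30 alternatives, with scaling to the 75th percentile and without M + LFD replicates 1 and 2. The Ndufaf8 call was lost under 10 of 30, among them leaving out any 1 of 9 male or female arrays. For F(OVX) minus F, no member was a DEG (2.15% of all genes) and 1 passed the unadjusted p (6.20%), Sdhaf2 at 0.27 ± 0.12 (limma, adjusted p = 0.78).

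A second probe did not always follow the brightest. Of 23 further probes of 21 members, 22 were well above background on all 24 arrays, and 19 of these correlated with the brightest probe at r over 0.5 within groups. The second probe of Cox7c, an abundant small subunit of complex IV, had r = -0.00 with the brightest. It read between 9.60 and 10.63 in males and between 7.91 and 9.94 over both female classes, while the brightest read between 13.72 and 14.21 and between 13.96 and 14.38. For Cox7c the difference of M and F was 0.99 by the second probe and -0.13 by the brightest. The Cox7c probes thus disagreed in sign. The second probe of Uqcrb, with r = 0.74, put HFD minus LFD in F(OVX) at -0.59, past 1.5-fold, against 0.11 by the brightest. It put M minus F at 0.68 against 0.19. For Atp5h, M minus F was 0.39 by 1 further probe and -0.09 by the brightest. Calls of members therefore hold for the brightest probe, and which transcripts each probe reads was not tested.

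The clearest feature of the chain, though not particular to it, was that its subunits varied together between mice. After the group mean of each gene was subtracted, the median correlation over all pairs of the 79 subunits was r = 0.52 across the 24 arrays, against -0.00 over all 16830 genes well above background on all arrays. It was 0.55 within complex I, 0.33 within complex II, 0.64 within complex III, 0.38 within complex IV and 0.61 within complex V, and 0.50 between subunits of different complexes. Pairs within complexes I, III and V were thus somewhat closer than pairs of different complexes, and pairs within complexes II and IV less close. These correlations share array, normalization and tissue piece and are given as a description. Quantile normalization gives all arrays the same distribution of signals, which draws the median over all genes towards 0 and makes it a weak comparison. The 74 mitochondrial ribosomal proteins had a median of 0.50, the 37 proteasome subunits 0.46, the 18 citric acid cycle genes 0.29 and the 74 cytosolic ribosomal proteins 0.06. The subunits were thus close to the mitochondrial ribosomal proteins and the proteasome in this.

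The contrast with the cytosolic ribosomal proteins depended on the normalization. With each array scaled to its 75th percentile in place of quantile normalization, the medians were 0.89 for the subunits and 0.92 for the cytosolic ribosomal proteins, with 0.72 for the mitochondrial ribosomal proteins and 0.73 for the proteasome. With normexp background correction the subunit median was 0.48 and the cytosolic ribosomal median 0.05. Without M + LFD replicates 1 and 2 the subunit median was 0.50.

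Of the 79 subunits, 65 had r over 0.5 with the mean of all other subunits and 4 had r below 0. Ndufs6, a zinc-binding accessory subunit of complex I, followed the others at r = 0.94, Uqcrq at 0.93, Uqcr10 at 0.90, Cox7a2 at 0.93 and Atp5j2 at 0.94. The lowest values were those of Cox7a2l (-0.27), a factor in joining complexes III and IV, and Atp5g2 (-0.20), a gene for the c ring of the ATP synthase, while Sdha (-0.08) and Ndufs1 (-0.07) were close to 0. The other c ring genes, Atp5g1 and Atp5g3, which encode the same mature protein, followed the rest at 0.82 and 0.77. Within complex II, Sdhb followed all other subunits at 0.90 and Sdhc at 0.51, but Sdhd only at 0.22. In the head and central stalk of the ATP synthase, Atp5a1 followed at 0.23, Atp5b at 0.52, the gamma subunit Atp5c1 at 0.40 and the delta subunit Atp5d at 0.87, and in the peripheral stalk Atp5o and Atp5j both at 0.86.

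**Figure D4:**
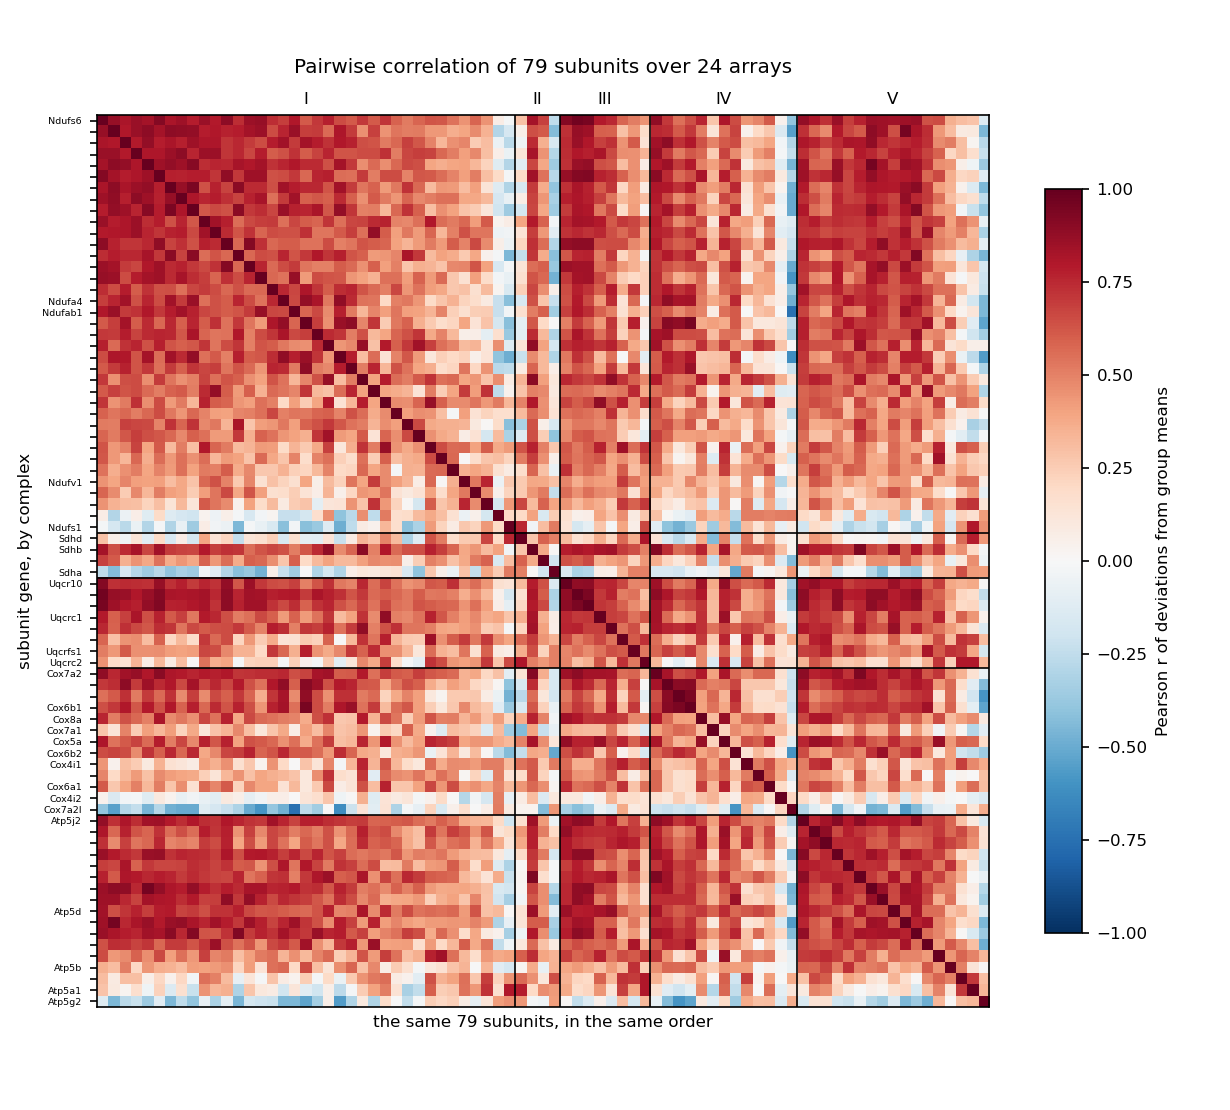
Pearson r between all pairs of 79 subunits over 24 arrays after the group means were subtracted, ordered by complex and, within each, by the correlation with the rest of that complex. Red fills most of the blocks both within and between complexes, with a median r of 0.52, and pale or blue bands mark, among the labelled rows, Ndufs1, Sdha, Cox4i2, Cox7a2l and Atp5g2.

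Among 11 assembly factors, 6 had r over 0.5 with the mean of the subunits, from 0.54 for Ndufaf5 to 0.74 for Ndufaf6, while Ndufaf7 (-0.01), Sdhaf2 (0.02) and Sdhaf1 (-0.23) did not follow it. The mean of 21 assembly factors of complex IV outside the prefixes, such as Coa3 and Surf1, followed the subunit mean at r = 0.88, and the mean of Cyc1 and Cycs, the cytochromes c1 and c, at 0.90. The lists of assembly factors of the other complexes, those with the prefixes included, followed it at 0.72 for complex I, -0.10 for complex II, 0.46 for complex III and 0.37 for complex V. The mitochondrial ribosomal proteins followed at 0.61, the citric acid cycle genes at 0.21 and the 16 regulators of mitochondrial biogenesis, such as Ppargc1a, Nrf1 and Tfam, at -0.23.

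Levels of some cell type markers moved with the subunit mean. Within groups it correlated at r = 0.52 with the mean of the 7 colonocyte markers, at 0.51 with the 7 goblet markers, at -0.59 with 5 of the 6 myeloid markers and at -0.40 with the 7 smooth muscle markers (24 arrays). It correlated at 0.05 with the 7 general epithelial markers, such as Epcam and Cdh1, and at -0.47 with 2 squamous markers. The 4 anterior Hox genes detected on all arrays followed at 0.51, B and plasma cell markers at -0.38 and pericyte markers at -0.37. T cell markers stood at -0.17, neuron and glia markers at 0.21 and proliferation markers at 0.20. Over the raw values, leaving out the 2 arrays farthest from the median of each list moved r from 0.45 to 0.28 for the colonocyte markers, from -0.20 to 0.07 for the smooth muscle markers, from 0.05 to 0.41 for the epithelial markers and from -0.65 to -0.53 for the myeloid markers. The same step moved r from 0.45 to 0.19 for the anterior Hox genes and from -0.52 to -0.26 for the squamous markers. The mean of the colonocyte markers ranged from -0.94 to 0.98 in M + LFD, from -0.61 to 1.07 in M + HFD, from -1.60 to 0.90 in F + LFD, from -1.41 to 0.32 in F + HFD, from -1.36 to 1.23 in F(OVX) + LFD and from -0.05 to 0.54 in F(OVX) + HFD. The myeloid mean reached 1.07 in F + LFD and 0.64 in F + HFD, in each on replicate 3, where the subunit mean was lowest of its group (-0.21 and -0.12). The subunit mean also correlated with the 75th percentile of the raw signal at r = -0.48. The part of these in the shared variation was not tested.

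**Figure D5:**
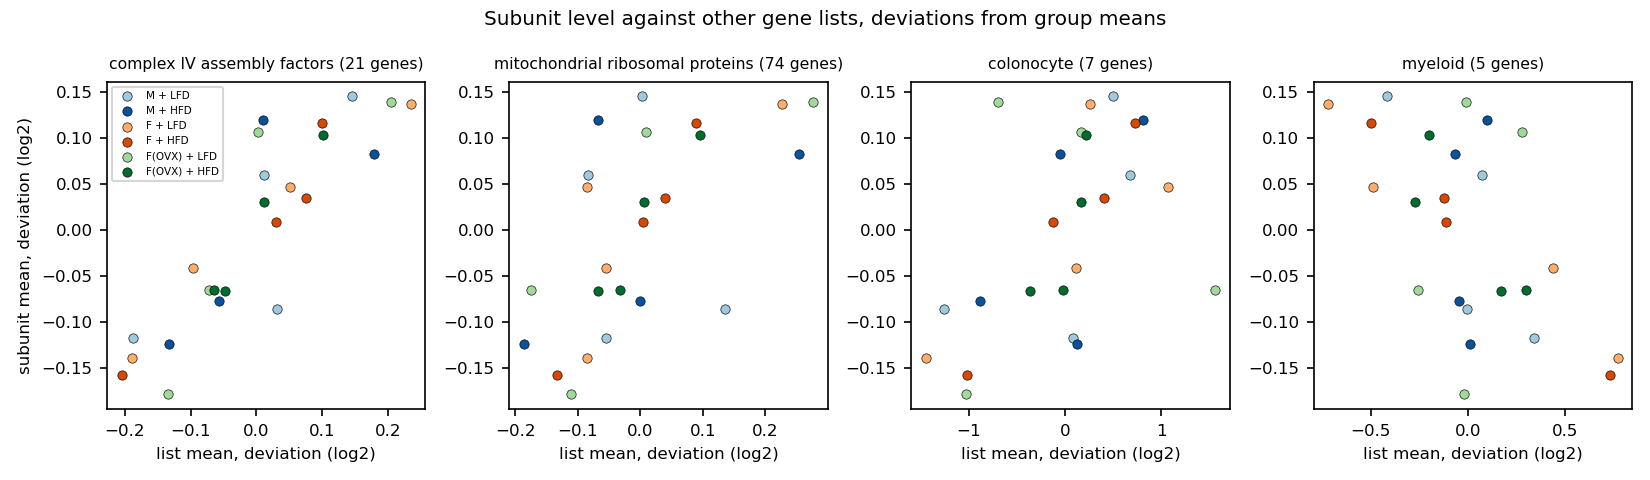
Deviation of the mean of the 79 subunits from its group mean (vertical) against that of 4 other gene lists (horizontal), in log2 signal, 1 point for each of the 24 arrays, colored by group. The points rise along complex IV assembly factors (r = 0.88) and mitochondrial ribosomal proteins (r = 0.61), spread wider along colonocyte markers (r = 0.52) and fall along myeloid markers (r = -0.59).

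Outside the prefixes and the lists, the detected genes that followed the subunit mean most closely were Nus1 (r = 0.92), Otc (0.91), Ppp1r14d (0.91), Fam3b (0.90), Lrfn3 (0.90) and Higd1a (0.89) within groups over 24 arrays. Otc encodes the urea cycle enzyme ornithine transcarbamylase, which is also made in the intestinal epithelium, and Higd1a a mitochondrial inner membrane protein. Fabp2, the intestinal fatty acid binding protein of enterocytes, followed at 0.87. They were chosen for this likeness out of all detected genes.

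The other genes of mitochondrial energy metabolism gave no DEG in any diet comparison. Of the 16 regulators of biogenesis, 0 were DEGs in each class, and at an unadjusted p under 0.05 Esrrg, an estrogen-related receptor, was higher on HFD in F (0.55 ± 0.22) and Gabpa, a subunit of GABP, lower in F(OVX) (-0.39 ± 0.17). Esrrg differed by 1.88 ± 0.83 in M without passing. Ppargc1a, the coactivator of mitochondrial biogenesis, differed by 0.10 ± 0.34 in M, 0.02 ± 0.24 in F and -0.42 ± 0.27 in F(OVX). Of the 18 genes of the citric acid cycle and pyruvate dehydrogenase, none passed an unadjusted p in M, F or F(OVX), with medians of -0.06, 0.02 and 0.16. Of the assembly factors outside the prefixes, Atpaf1 (complex V) differed by -0.40 ± 0.15 in M and Bcs1l (complex III) by 0.42 ± 0.15 in F at an unadjusted p under 0.05, and none was a DEG.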

How the data were processed

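Colon RNA of 24 mice, 4 in each of 6 groups given by the sample labels, was hybridized to 1-color Agilent arrays. The methods name 5 animals a group. The authors scanned the arrays and deposited the scanner output of Feature Extraction 11.0.1.1 (submitters' processing notes), whose processed signal is a linear intensity, background-subtracted and detrended within each array but not normalized between arrays. The deposited median intensities of spots and local background were used for normexp (offset 50), and deposited flags of other kinds (well above background, outlier, saturated, control) served as filters. No spot outside the controls was saturated.

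Processed signals were log2-transformed and quantile-normalized over 24 arrays, without controls and without outlier spots. Of 56605 probes, 32994 received a symbol by accession from a RefSeq gene table (GRCm38.p6). A gene took its brightest probe and was tested if, in at least 1 group compared, all 4 arrays had it well above background. Each diet comparison was fitted on its 8 arrays, other contrasts on all 24, with limma 3.58.1 in R 4.3.3 and Benjamini-Hochberg adjustment over all genes tested. Fits were tested on simulated data. The number of arrays limits the precision.

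Members, lists and tests were chosen with earlier results of these data known. Named are called members, per complex the member with the largest average diet effect and the highest and lowest correlation, isoform sets and core subunits, 1 of which is not reported here. The replicate number is the slide column in every class. Same-numbered arrays deviated together in F (r = 0.26, 0.38, 0.51 and 0.22), where the number was taken to pair the arrays, but not in M (0.04, -0.25, 0.09 and 0.00). In F(OVX) 3 of 4 pairs did (0.32, -0.06, 0.27 and 0.21), short of the rule that all exceed 0.1. Alternatives were other normalization, background, filters, probes, fits, a t-test as in the methods, a replicate block and leaving out arrays. Tumor, histology and microbiota data were not used here.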

Additional observations from a re-analysis of the deposited data

Results flagged for a closer look

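In 9 of 228 groups of 4 values, 1 array lay far from the other 3 (the gap to its nearest neighbour over the range passed Dixon's 95% critical value), where chance gives about 1 in 20. The flags were thus no more frequent than chance gives. Of the 9, 3 fell on F + LFD replicate 3 or F + HFD replicate 3 with a low subunit. Cox5a read 15.60 on the former against 15.85 to 15.87 on the others of its group, and Uqcrc2 13.86 against 14.12 to 14.14. Ndufs6 read 14.75 on the latter against 14.99 to 15.02. Cox6a2 on F + HFD replicate 3 was high instead, at 5.60 against 3.75 to 3.80, near the limit of detection. M + LFD replicate 3 was low for Cox7a1 (11.83 against 12.75 to 12.91) and Cox6a2 (3.38 against 4.58 to 4.80), both muscle forms. Ndufs1 read 12.67 on F(OVX) + LFD replicate 3 against 13.25 to 13.35, and Ndufv1 13.30 on M + HFD replicate 4 against 13.74 to 13.78. Atp5a1 read 16.03 on F(OVX) + HFD replicate 3 against 15.88 to 15.91.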

How the results depend on the processing

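Scaling to the 75th percentile gave 1 DEG among the members in F (Cox7a1, 0.59), a median of 0.34 in F, of -0.39 for the diet effect M minus F, of -0.0018 for M minus F(OVX) and of -0.39 for F(OVX) minus F with 1 member called, 1 member at an adjusted p under 0.05 in M minus F, and a median subunit correlation of 0.89. The median of all genes moved to at most 0.04 under it. Normexp called 0 members for the diet effects M minus F and M minus F(OVX). With the replicate block, 1 member was a DEG in F (Cox8b, 0.74), 6 of 93 (6.45%) passed an unadjusted p there against 7.37% of all genes, and 586 of 22085 genes were DEGs. The block changed no other count of members called. The methods' t-test with the same fold and p thresholds called 0 members in each class, and 0 after Benjamini-Hochberg adjustment, and over all genes 489, 125 and 209 DEGs in M, F and F(OVX), against 882, 264 and 421 by limma. Without M + LFD replicates 1 and 2, chosen after seeing the data, 1 member was called in M (Cox7a1), 0 for the diet effect M minus F and 0 at an adjusted p in M minus F. The anterior Hox covariate, also chosen so, gave 1 in M.

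Leaving out each array in turn gave 0 members called in M (median -0.16 to -0.07), 0 to 2 in F (0.06 to 0.18; Ndufab1 without LFD replicate 2 or HFD replicate 3 of F, Cox8b without F + LFD replicate 3, Cox7a1 and Cox8b without F + HFD replicate 4) and 0 in F(OVX) (0.03 to 0.11). For the diet effects it gave 0 to 4 called in M minus F (-0.28 to -0.17), 0 to 3 in M minus F(OVX) (-0.23 to -0.12; 3 without F(OVX) + LFD replicate 3), 0 to 2 in F(OVX) minus F (-0.12 to -0.00; 2 without F(OVX) + LFD replicate 4, 1 without F + HFD replicate 3 or 4) and 0 on average (-0.00 to 0.04). In the fits with 4, 3 and 2 members called in these comparisons, 4.94%, 8.12% and 2.41% of all genes were. In M minus F it gave 0 to 2 called (2 without M + HFD replicate 4 or F + HFD replicate 1) and 1 to 3 at an adjusted p (median -0.01 to 0.05), in F(OVX) minus F 0 called (0.01 to 0.06), and a subunit correlation of 0.49 to 0.54. In the M minus F fits with 2 members called (2.15%), 5.66% and 6.30% of all genes were. Of 1538 values of named genes in the diet comparisons, 1529 kept their side of the threshold and 9 moved past it, and 129 values that passed no threshold changed sign. With 4 mice a group, differences under 1.5-fold are often within the error.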
